A study of Mus musculus with 40 samples.

Results

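A set of 10 genes that stand for the antioxidant response of the transcription factor NRF2 were followed through every cell population of a mouse colon tumor study. They were the rows of the expression tables that carry the mouse Ensembl identifiers of Nfe2l2, Nqo1, Hmox1, Gclc, Gclm, Txnrd1, Srxn1, Slc7a11, Gpx2 and Prdx1, which makes 10 genes of the 45706 in the tables, and all 10 were found. RNA was sequenced from 40 libraries in 10 groups of 4. Tumor-bearing mice were labelled as C57Bl6/Sv129 animals with floxed Apc (Apc fl/fl) and the transgene Cdx2CreERT2, in which tamoxifen activates Cre in cells that use the Cdx2 promoter, such as colon epithelium, and they received 1 injection of 25 mg/kg at an age of 8 to 10 weeks. Healthy mice were labelled as C57Bl6, without transgene and without agent, so strain, genotype, tamoxifen and tumor cannot be told apart wherever healthy and tumor-bearing mice are compared. From tumors came neutrophils (CD45+ CD11b+ MHCII- Ly6G+), monocytes (CD45+ CD11b+ MHCII- Ly6G- Ly6C-high), epithelial cells (EpCAM+ CD45-) and stromal cells (EpCAM- CD45-). Blood gave neutrophils and monocytes of tumor-bearing and of healthy mice, and healthy colon gave epithelial and stromal cells. Colon tissue was digested with enzymes before sorting and blood was not, which separates the blood libraries from all tissue libraries.

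NRF2, encoded by Nfe2l2, is held in the cytoplasm by KEAP1 and marked for degradation. Electrophiles and oxidants modify KEAP1, and NRF2 then accumulates, pairs with a small MAF protein in the nucleus and binds antioxidant response elements, where it competes with the repressor BACH1. Because this switch acts on the protein, mRNA of Nfe2l2 is not a reading of NRF2 activity, and several targets also answer to other factors, as Slc7a11 does to ATF4 and Hmox1 to the loss of BACH1. The other 9 genes are targets known to cover distinct arms of the response: cystine import (Slc7a11), glutathione synthesis (Gclc, Gclm), the thioredoxin and peroxiredoxin system (Txnrd1, Srxn1, Prdx1), peroxide removal with glutathione (Gpx2), quinone reduction (Nqo1) and heme breakdown (Hmox1).

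The element itself can be read in the promoters of the genes, and 5 stretches are shown because they hold either the core of the element or the closely related AP-1 site. RefSeq promoters of GRCm38.p6, each running from 250 bases before to 50 after a start, were searched on both strands for TGACNNNGC, the antioxidant response element, and for TGANTCA, the AP-1 site. Of the 10 genes, 8 matched a promoter entry (10 promoters, since Txnrd1 had 3), and Hmox1 and Gclc had none. The element was matched in 5 of these 10 promoters, each of another gene, against 12.4% of all 32851 promoters. All genes but Nfe2l2 were listed as known targets, so this share is a description only. The AP-1 letters were matched in 2 of the 10 promoters, against 7.81% of all promoters. Capitals below mark the element, or its reverse complement, in Nfe2l2, Gclm, Txnrd1 and Prdx1, and the AP-1 letters in Srxn1.
Nfe2l2: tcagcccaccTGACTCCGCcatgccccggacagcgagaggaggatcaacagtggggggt
Gclm: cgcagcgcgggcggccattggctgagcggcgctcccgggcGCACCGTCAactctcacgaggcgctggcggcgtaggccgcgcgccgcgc
Txnrd1: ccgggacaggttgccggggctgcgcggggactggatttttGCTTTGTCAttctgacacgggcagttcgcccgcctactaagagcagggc
Srxn1: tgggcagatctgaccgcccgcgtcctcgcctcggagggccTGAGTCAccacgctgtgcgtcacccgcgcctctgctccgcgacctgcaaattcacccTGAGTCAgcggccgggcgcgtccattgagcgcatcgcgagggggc
Prdx1: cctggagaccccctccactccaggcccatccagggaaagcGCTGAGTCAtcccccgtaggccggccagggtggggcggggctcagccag

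The stretch of Nfe2l2 lies at chr2:75704855-75704913 on the minus strand, that of Gclm at chr3:122245383-122245471, that of Txnrd1 (its promoter 2) at chr10:82859074-82859162, that of Srxn1 at chr2:152105382-152105523 and that of Prdx1 at chr4:116685426-116685514, the last 4 on the plus strand. All 5 lie before the RefSeq start on which their promoter entry is set. The stretch of Txnrd1 lies within the gene span given below, before an internal start. That of Srxn1 ends a few bases past the gene start given below. In Prdx1 the element and an AP-1 match share letters. Srxn1 also had the element after its start, which is not shown. The windows of Nqo1, Slc7a11 and Gpx2 held neither set of letters, which says only that these letters are not in these 300 bases. A match of letters is not a measured binding site.

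Expression was deposited as reads per kilobase scaled to the library (RPKM), which allows comparison between genes, and as estimated counts, which were tested. Differences between groups are given as a log2 fold change ± its standard error (SE) from edgeR, with a p-value adjusted over all genes of that comparison by Benjamini and Hochberg. A gene rose or fell where the adjusted p was under 0.05, and it was called where its log2 fold change also exceeded 1.5 in size. Titles carry what look like animal numbers. Within a group no number recurs, 4 titles join 2 of them, and some recur between groups, so libraries of different groups can come from the same animal. The tests below treat all libraries as separate, and fits with the title number as a block are given where they change a call.

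Counts on genes totalled 10717873 to 38002939 per library, and mitochondrial genes took 5.34% to 83.9% of them. Several libraries did not look like their label alone. On 12 epithelial markers, set as a median percentage of the mean level in tumor epithelial cells, tumor neutrophil replicate 1 stood at 83.9% and the other 3 tumor neutrophil libraries at 4.75% to 17.5%, whereas no blood library was above 0.428%. Tumor monocyte replicate 2 stood at 20.8%, and tumor stromal replicates 1 and 2 stood at 95.3% and 45.1%. Fibroblast markers, the collagens and decorin among them, summed to 6.03 to 24.1 RPKM in the 4 tumor stromal libraries. In healthy stroma they summed to 359.5 to 2017 RPKM, so the tumor stromal libraries held little fibroblast RNA. Endothelial markers summed to 4.52, 3.81, 110 and 122 RPKM in tumor stromal replicates 1 to 4 and to 13.8 to 117 RPKM in healthy stroma. Replicates 1 and 2 thus lay below every healthy stromal library, and only replicates 3 and 4 kept endothelial RNA. Healthy epithelial replicate 4 had 83.9% of its counts on mitochondrial genes, which lowers every other RPKM value in it.

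**Figure D1:**
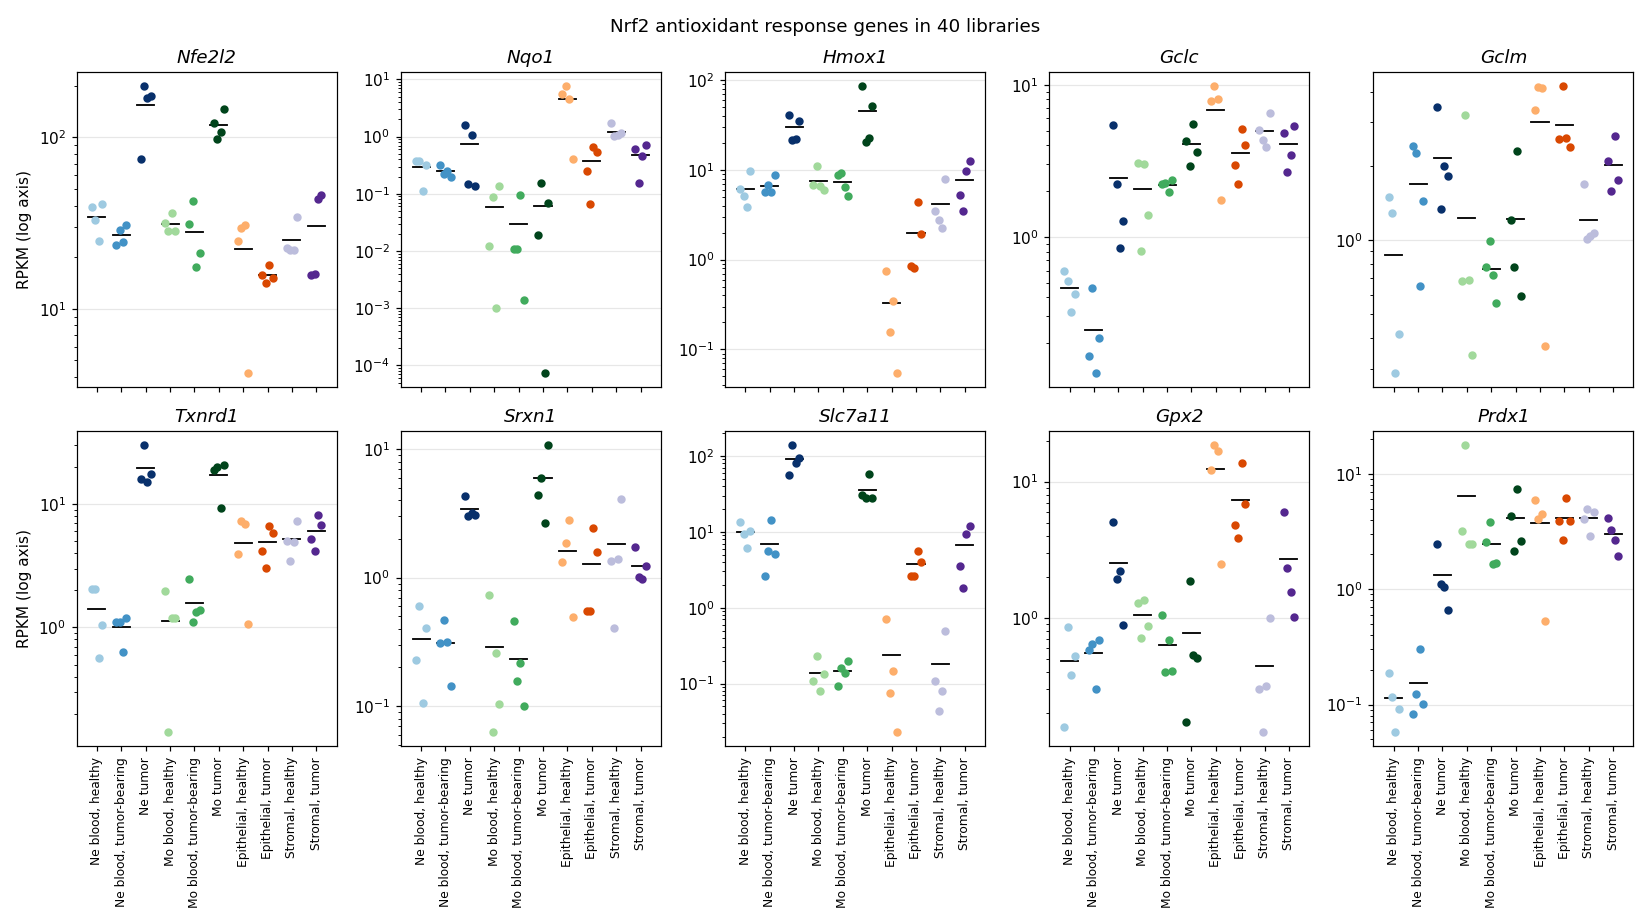
Levels of the 10 genes in each of the 40 libraries (y axis, RPKM, log axis) by group (x axis, Ne for neutrophils, Mo for monocytes). Each point is 1 library, in the order of replicates 1 to 4, and the line is the mean of 4. Nfe2l2, Hmox1, Txnrd1, Srxn1 and Slc7a11 were highest in tumor neutrophils and tumor monocytes, while Nqo1, Gclc, Gclm and Gpx2 had their highest mean in healthy epithelial cells.

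The regulator Nfe2l2 (chr2:75675513-75704641 in mm10, as are all gene positions here) was abundant in every population and had its highest level in myeloid cells from tumors. In tumor neutrophils it stood at 74.8, 198.5, 169.5 and 174.4 RPKM in replicates 1 to 4, and in blood neutrophils of the same tumor-bearing group at 23.4, 28.8, 24.7 and 30.8 RPKM. The ranges did not overlap, and the lowest tumor value belonged to replicate 1, the library with the most epithelial signal. The increase from blood to tumor was 2.69 ± 0.49 on the log2 scale (edgeR, adjusted p = 0.00424). Without replicate 1 it was 2.99 ± 0.27 (edgeR, adjusted p = 0.000551). Tumor monocytes held 120.8, 98.1, 108.0 and 145.6 RPKM of Nfe2l2, and blood monocytes of tumor-bearing mice 31.2, 42.7, 17.6 and 21.2 RPKM. Here too every tumor library was above every blood library, by 2.32 ± 0.29 on the log2 scale (edgeR, adjusted p = 0.000445). The rise did not differ detectably between both cell types (interaction 0.26 ± 0.55, edgeR adjusted p = 0.835).

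Slc7a11 (chr3:49892526-50443614), the cystine carrier of system xc-, whose import feeds glutathione synthesis, was abundant in tumor neutrophils and almost absent from blood monocytes. It was detected at 56.5, 137.5, 80.6 and 93.6 RPKM in tumor neutrophils and at 2.64, 5.62, 14.5 and 5.14 RPKM in blood neutrophils of tumor-bearing mice. Blood neutrophils of healthy mice held 13.3, 9.49, 6.15 and 10.3 RPKM. Neutrophils thus already carried the transcript in blood, and no tumor library overlapped with a blood library. The increase into the tumor was 3.88 ± 0.71 on the log2 scale (edgeR, adjusted p = 0.00424). Part of its transcript, 373 bases, also matched tubulin genes on the other strand, of which Tuba1c had the most counts, 4210 over the 40 libraries against 536944 of Slc7a11. Monocytes started from almost nothing. All 8 blood monocyte libraries lay between 0.0800 and 0.231 RPKM, and tumor monocytes at 30.3, 27.5, 57.3 and 27.7 RPKM, an increase of 8.18 ± 0.47 (edgeR, adjusted p = 5.39e-06). The change from blood to tumor was smaller in neutrophils than in monocytes by 4.41 ± 0.78 (interaction -4.41, edgeR adjusted p = 0.00518). It was the only one of the 10 called for such a difference, where 3.95% of 17465 genes were called. In healthy blood, neutrophils exceeded monocytes by 6.91 ± 0.43 (edgeR, adjusted p = 4.44e-06). In the tumor, neutrophils still exceeded monocytes by 2.01 ± 0.54 (edgeR, adjusted p = 0.0466), but the ranges touched, and this call was lost when any of 7 of the 8 libraries was left out (log2 fold change 1.46 to 2.39 over the 8 fits). Both tumor groups carry 3 title numbers in common, and with these as a block it was 2.22 ± 0.51 (edgeR, adjusted p = 0.059), or 1.85 ± 0.48 with the number as a random effect (limma-voom, adjusted p = 0.0379). With the label's replicate number as a block the adjusted p was 0.15 (edgeR). The interaction was still called with the title number as a block (-4.32 ± 0.78, edgeR adjusted p = 0.0465).

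Within the thioredoxin and peroxiredoxin arm, Txnrd1 and Srxn1 had high levels in tumor myeloid cells. Of the further genes listed for this arm, 0 of 8 tested were called higher from blood to tumor neutrophils, against 11.9% of all genes. In monocytes 1 of 9 was, against 7.76%. Txnrd1 (chr10:82833951-82897712), cytosolic thioredoxin reductase, stood at 15.9, 29.8, 15.1 and 17.5 RPKM in tumor neutrophils against 0.638 to 1.18 RPKM in blood neutrophils of tumor-bearing mice, a rise of 4.50 ± 0.51 (edgeR, adjusted p = 0.000626). In tumor monocytes it was 18.7, 19.9, 9.29 and 20.7 RPKM against 1.10 to 2.46 RPKM in blood, a rise of 3.70 ± 0.32 (edgeR, adjusted p = 4.36e-05). No tumor library of either cell type overlapped with blood. Srxn1 (chr2:152105516-152111376), sulfiredoxin, repairs overoxidized peroxiredoxins. Its levels were 4.31, 3.00, 3.21 and 3.07 RPKM in tumor neutrophils and 0.143 to 0.470 RPKM in their blood counterparts, a rise of 3.52 ± 0.49 (edgeR, adjusted p = 0.00111). Tumor monocytes held 4.36, 5.94, 2.67 and 10.7 RPKM of Srxn1 and blood monocytes 0.101 to 0.459 RPKM, a rise of 4.90 ± 0.56 (edgeR, adjusted p = 0.00026). Both rises were clear of any overlap between libraries.

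Prdx1 (chr4:116685544-116700822), a peroxiredoxin that reduces hydrogen peroxide, passed the test in neutrophils. In blood neutrophils it lay at 0.0578 to 0.305 RPKM in all 8 libraries and in tumor neutrophils at 2.49, 1.12, 1.04 and 0.659 RPKM, a rise of 3.09 ± 0.69 (edgeR, adjusted p = 0.0119). The highest value was again that of replicate 1, and without it the rise was 2.84 ± 0.71 (edgeR, adjusted p = 0.0282). The order of the tumor values was that of their epithelial marker sums, which were 179.4, 41.4, 37.7 and 12.7 RPKM. Tumor epithelial libraries held 2.70 to 6.15 RPKM of Prdx1, and the part of epithelial RNA in this rise was not tested further. In healthy blood, neutrophils had less Prdx1 than monocytes by 5.10 on the log2 scale (log2 fold change -5.10 ± 0.80, edgeR adjusted p = 0.000627). Monocytes did not pass the test from blood to tumor, at 4.32, 2.15, 7.47 and 2.63 RPKM in tumor against 1.65 to 3.86 RPKM in blood (1.06 ± 0.47, edgeR adjusted p = 0.153). The difference between both changes did not pass either (interaction 1.90 ± 0.78, edgeR adjusted p = 0.173). Healthy blood monocyte replicate 2 was far above its group, with 17.6 RPKM of Prdx1 against 2.44 to 3.21 RPKM in the other 3. Values of Prdx1 are uncertain, because the processed pseudogenes Gm21399 and Gm7204 matched its transcript over 597 bases at 98.3% and 97.5% identity. Over the 40 libraries they held 56.5% of the counts of the gene and both copies together (34.8% to 61.8% per library). With the counts of the copies added to the gene, the rise in neutrophils was 3.11 ± 0.68 (edgeR, adjusted p = 0.0106).

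Hmox1 (chr8:75093621-75100589), the inducible heme oxygenase, which opens heme and frees its iron, rose in both myeloid lineages. Tumor neutrophils held 40.8, 21.5, 22.2 and 35 RPKM and blood neutrophils 5.60, 6.75, 5.60 and 8.78 RPKM, a rise of 2.17 ± 0.32 (edgeR, adjusted p = 0.00148). Tumor monocytes held 85.3, 20.4, 22.7 and 51.5 RPKM and blood monocytes 8.85, 9.16, 6.37 and 5.06 RPKM, a rise of 2.88 ± 0.46 (edgeR, adjusted p = 0.00205). Tumor and blood did not overlap in either lineage, and the tumor monocyte libraries differed among themselves more than those of neutrophils. Red cell transcripts were present in blood sorts, with summed levels of 6 erythroid markers of 1.30 to 1064 RPKM over the 16 blood libraries, 5.77 to 129.5 RPKM in tumor neutrophils and 0.918 to 2.61 RPKM in tumor monocytes, and their part in the Hmox1 difference was not tested.

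The subunits of glutamate-cysteine ligase, the first enzyme of glutathione synthesis, did not move together. Gclc (chr9:77754535-77794485), the catalytic subunit, stood at 5.46, 2.22, 0.849 and 1.27 RPKM in tumor neutrophils and at 0.166, 0.464, 0.128 and 0.217 RPKM in blood neutrophils, a rise of 3.35 ± 0.69 (edgeR, adjusted p = 0.00753). Replicate 1 was more than any other tumor neutrophil library, and the rise without it was 2.93 ± 0.69 (edgeR, adjusted p = 0.0217). In monocytes Gclc went from 1.98 to 2.35 RPKM in blood to 2.90 to 5.54 RPKM in tumor without overlap, a rise of 1.16 ± 0.29 (edgeR, adjusted p = 0.0196), which was lost when blood monocyte replicate 1 or 3 was left out (edgeR, adjusted p = 0.0617 and 0.0609). The difference between the rises in both cell types did not pass (interaction 2.03 ± 0.70, edgeR adjusted p = 0.106), but DESeq2 (adjusted p = 0.0344) and 1 fit of all 40 libraries (edgeR, adjusted p = 0.0226) called it. Gclm (chr3:122245557-122270732), the modifier subunit, overlapped between blood and tumor. It was at 3.48, 1.33, 2.01 and 1.82 RPKM in tumor neutrophils and 0.653 to 2.40 RPKM in blood (0.37 ± 0.41, edgeR adjusted p = 0.577), and in monocytes the log2 difference was 0.98 ± 0.46 (edgeR, adjusted p = 0.18). Gclm overlaps Gm17494 on the other strand and the pseudogene Gm6061, and the library preparation keeps no strand.

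Gpx2 (chr12:76792333-76795554, overlapping Fntb on the other strand), the glutathione peroxidase of gastrointestinal epithelium, passed the test in tumor neutrophils by a narrow margin. Its levels were 5.02, 1.94, 2.19 and 0.885 RPKM there and 0.297 to 0.689 RPKM in blood neutrophils, a difference of 2.19 ± 0.66 (edgeR, adjusted p = 0.0408). Without replicate 1 it was 1.87 ± 0.64 (edgeR, adjusted p = 0.0803). The order of the 4 tumor libraries was close to that of their epithelial marker sums, which were 179.4, 41.4, 37.7 and 12.7 RPKM. The marker sum exceeded 10 RPKM in 20 libraries of any group, the 4 of tumor neutrophils among them. In these Gpx2 amounted to 1.71% to 6.95% of the sum (median 3.56%). Tumor neutrophil replicates 1 to 4 lay at 2.80%, 4.69%, 5.82% and 6.95%. Healthy epithelial libraries lay at 2.61% to 4.17% and tumor epithelial ones at 2.50% to 3.50%, so replicates 2 to 4 were above both. Adding the counts of the copy Gpx2-ps1, which matched over 572 bases at 98.1% identity and held 25.6% of the joint counts, also ended the call (1.60 ± 0.61, edgeR adjusted p = 0.0932). Nqo1 (chr8:107388225-107403206), the quinone reductase, was at 1.58, 0.146, 1.08 and 0.140 RPKM in tumor neutrophils and 0.199 to 0.323 RPKM in blood (1.44 ± 0.81, edgeR adjusted p = 0.245). In monocytes it was near the limit of detection, with at most 0.156 RPKM in any of 12 libraries and 3 counts or fewer in 7 of them, and it was not tested from blood to tumor.

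**Figure D2:**
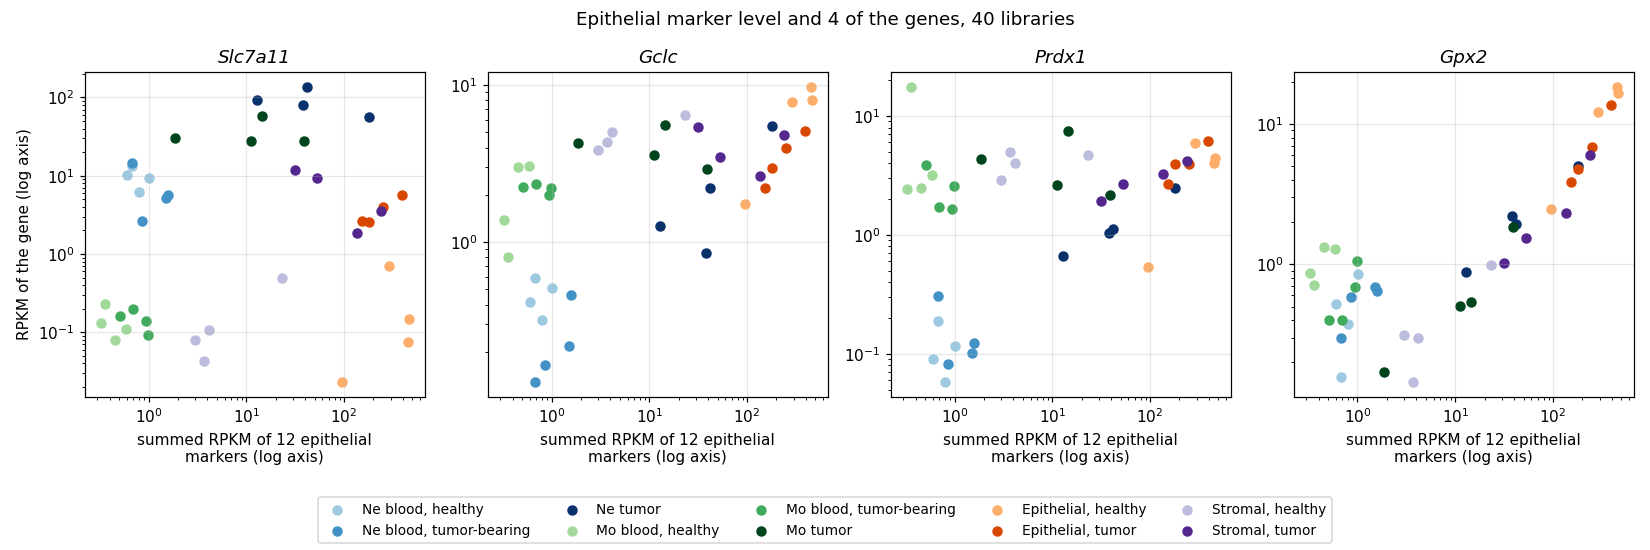
Levels of Slc7a11, Gclc, Prdx1 and Gpx2 (y axes, RPKM, log axis) against the summed level of 12 epithelial markers (x axes, RPKM, log axis), with 1 point per library and colors by group. Above 10 RPKM of markers, Gpx2 amounts to 1.71% to 6.95% of the marker sum in the 20 libraries that reach it, none from blood. Tumor neutrophils set the top of this range (2.80% to 6.95%), and healthy and tumor epithelial libraries lie at 2.50% to 4.17%. Slc7a11 in tumor neutrophils and monocytes lies above all tumor epithelial libraries.

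Because epithelial RNA was present in the tumor myeloid sorts, their levels were set beside those of tumor epithelial cells. Nfe2l2, Hmox1, Txnrd1, Srxn1 and Slc7a11 were higher in every tumor neutrophil and every tumor monocyte library than in any tumor epithelial library. For Slc7a11 the lowest tumor myeloid value, 27.5 RPKM, compared with a highest tumor epithelial value of 5.64 RPKM. For Srxn1 the margin was small, 2.67 against 2.43 RPKM, and when RPKM was scaled to reads outside mitochondrial genes 1 of 4 tumor neutrophil and 3 of 4 tumor monocyte libraries remained above. Gclc exceeded every tumor epithelial library in 1 tumor neutrophil library, replicate 1, and in 1 tumor monocyte library, and on the scale of reads outside mitochondrial genes in none. Prdx1 did so in 1 tumor monocyte library, also in none on that scale, Nqo1 in 2 tumor neutrophil libraries on both scales, and Gclm and Gpx2 in none. The part of epithelial RNA in the results for Gclc, Gpx2 and Prdx1 in neutrophils was not tested beyond these values and the fits without replicate 1. Since these are bulk libraries, a change in the cells that make up a sort and a change in RNA per cell cannot be told apart.

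As a group, 8 of the 10 genes were called higher in tumor than in blood neutrophils, where 11.9% of 13674 genes tested were called higher, and none was called lower. The median log2 fold change of the 10 was 2.89, against 0.11 over all genes tested. The 10 genes were chosen with earlier results of these data known, so such shares and medians are descriptions only. In monocytes 5 of the 9 genes tested were called higher, against 7.76% of 15280 genes, and none lower, with a median of 2.32 against -0.03 over all genes. The 5 genes called in monocytes, Nfe2l2, Hmox1, Txnrd1, Srxn1 and Slc7a11, were also called in neutrophils. The 2 comparisons share no library, but the title numbers place 3 animals in both tumor groups and 3 in both blood groups, so they are not independent. Other values moved with the comparison in neutrophils. Mitochondrial genes took 17% to 37.5% of counts in tumor and 9.36% to 16.8% in blood neutrophils, without overlap. Neutrophil markers stood at a median of 5.34% of their mean in blood in tumor replicate 1 and of 40.8% to 48.8% in the other 3, against 87.4% to 115.3% in blood. With mitochondrial genes left out of the counts 8 genes were called, and without replicate 1 there were 7. In monocytes the mitochondrial shares overlapped, at 18.8% to 31.5% in tumor and 17.9% to 25.0% in blood, and monocyte markers stood at 34.1% to 50.3% in tumor and 77.3% to 121.7% in blood. The part of the markers in these results was not tested.

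**Figure D3:**
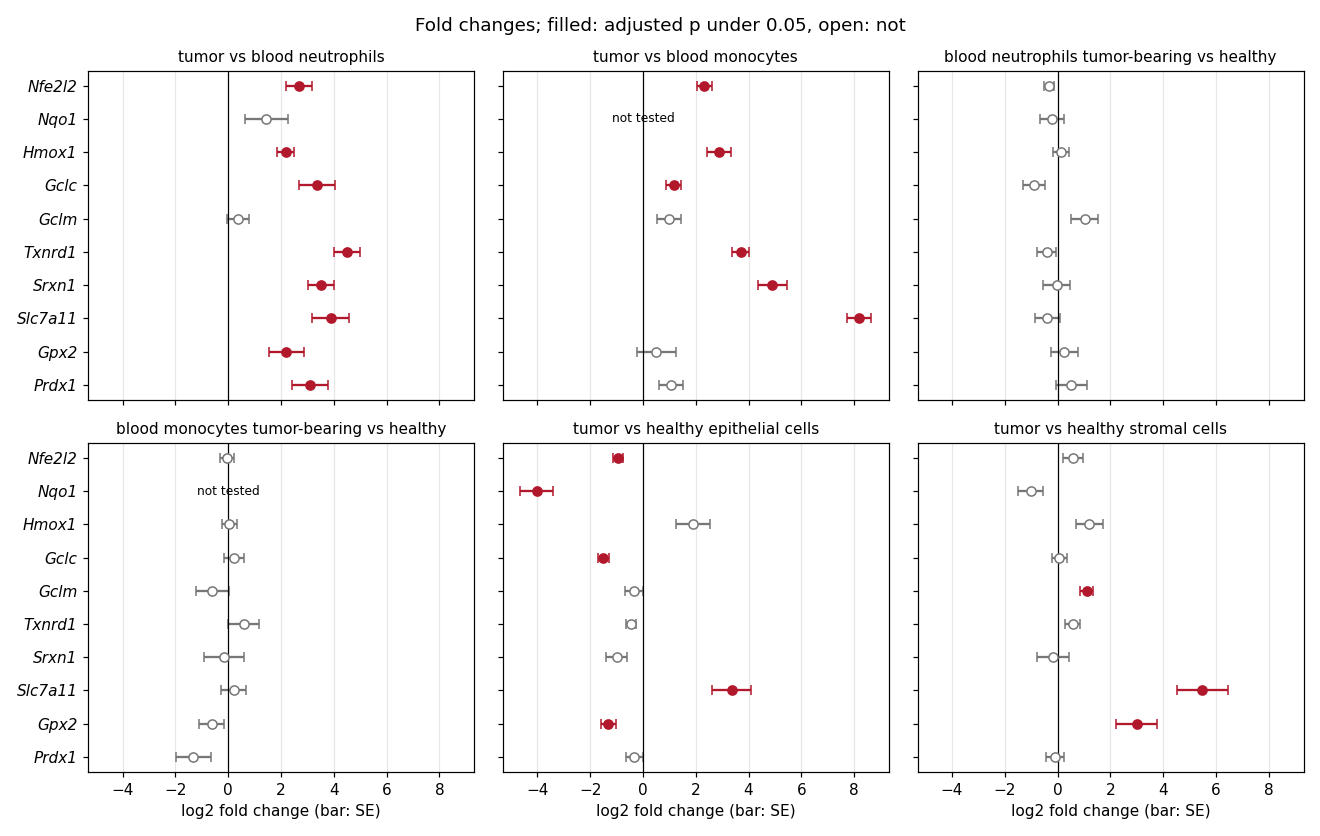
Log2 fold changes of the 10 genes (x axes) with their SE (bars) in 6 comparisons, where a filled point has an edgeR adjusted p under 0.05 and an open one does not. In tumor against blood neutrophils 8 genes are filled, all to the right of 0, and in blood of tumor-bearing against healthy mice none is filled.

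Carrying a tumor did not come with a detectable change of these genes in blood. None of the 10 genes passed the edgeR test in blood neutrophils of tumor-bearing against healthy mice, where 4.01% of 13360 genes were called, and none of 9 did in blood monocytes, where 0.209% of 15313 genes were called. At an unadjusted p under 0.05 there were also 0 in either cell type, and limma-voom and DESeq2 called 0 as well. In neutrophils the largest differences were Gclm, at 1.02 ± 0.50 (edgeR, adjusted p = 0.272), and Gclc, at -0.89 ± 0.42 (edgeR, adjusted p = 0.252). Slc7a11, at 9.49 and 10.3 RPKM in the middle healthy libraries and 5.14 and 5.62 RPKM in the middle tumor-bearing ones, differed by -0.40 ± 0.47 (edgeR, adjusted p = 0.681). The SE of these differences, 0.20 to 0.58 in neutrophils and 0.26 to 0.76 in monocytes, sets the size of change that could have been seen. The neutrophil markers themselves stood apart, at a median of 10.9% to 30.7% of their mean level in tumor-bearing blood in the 4 healthy libraries and 87.4% to 115.3% in the 4 tumor-bearing ones, and their part in these values was not tested.

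In epithelial cells 4 of the genes fell in tumors, Nqo1 by the most, and 1, Slc7a11, rose. Nqo1 had its highest level of all 10 groups in healthy epithelium, at 5.65, 7.63, 4.58 and 0.410 RPKM, against 0.252, 0.0659, 0.653 and 0.532 RPKM in tumor epithelial cells. The low healthy value is replicate 4, the library with the highest mitochondrial share. Scaled to reads outside mitochondrial genes, Nqo1 lay between 2.54 and 17.3 in healthy and between 0.160 and 1.22 RPKM in tumor epithelium, with no overlap. It fell by 4.03 on the log2 scale (log2 fold change -4.03 ± 0.61, edgeR adjusted p = 0.000979). Gclc stood at 7.77, 9.78, 8.01 and 1.75 RPKM in healthy and 2.98, 2.23, 5.13 and 4.00 RPKM in tumor epithelium (log2 fold change -1.50 ± 0.19, edgeR adjusted p = 0.000369), and it too was free of overlap on that scale, at 10.8 to 23.9 against 5.38 to 9.56 RPKM. Gpx2, at 12.1, 18.4, 16.7 and 2.48 RPKM in healthy and 4.80, 3.84, 13.6 and 6.87 RPKM in tumor epithelium, fell by 1.31 on the log2 scale (log2 fold change -1.31 ± 0.27, edgeR adjusted p = 0.00602), with overlap between groups on both scales. Nfe2l2 itself was at 24.9, 29.6, 30.9 and 4.25 RPKM in healthy and 15.8, 14.2, 17.9 and 15.2 RPKM in tumor epithelium (log2 fold change -0.94 ± 0.19, edgeR adjusted p = 0.00491), also with overlap. On deposited RPKM without further scaling, the falls of Gclc, Gpx2 and Nfe2l2 did not pass limma, where the adjusted p were 0.398, 0.539 and 0.871.

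Slc7a11 went the other way. Healthy epithelial libraries held 0.713, 0.0757, 0.148 and 0.0230 RPKM and tumor epithelial libraries 2.60, 2.65, 5.64 and 4.04 RPKM, without overlap, a rise of 3.36 ± 0.75 (edgeR, adjusted p = 0.0086). Summed markers of 2 other cell types were also higher without overlap, those of monocytes at 9.09 to 26.0 RPKM in tumor and 0.451 to 2.02 RPKM in healthy epithelium and those of endothelium at 4.42 to 4.81 and 0.0558 to 0.429 RPKM. The monocyte sum was mostly Fn1, at 8.71 to 24.3 RPKM, while Csf1r and Ccr2 reached at most 0.464 and 0.151 RPKM in tumor epithelium, and the endothelial sum was mostly Cdh5. Neutrophil markers were lower in tumor, at 1.59 to 5.79 against 6.79 to 12.4 RPKM. The part of such cells in the level of Slc7a11 was not tested further. Hmox1, at 0.0552 to 0.744 RPKM in healthy and 0.798 to 4.37 RPKM in tumor epithelium, did not overlap either but missed the threshold (1.90 ± 0.64, edgeR adjusted p = 0.057). DESeq2 (adjusted p = 0.0108) and 1 fit of all 40 libraries (edgeR, adjusted p = 0.0119) called it higher. Txnrd1, Srxn1, Gclm and Prdx1 did not pass, with log2 fold changes of -0.46 ± 0.19, -1.0 ± 0.39, -0.35 ± 0.34 and -0.33 ± 0.32. In all, 1 gene was called higher, where 7.52% of 16085 genes tested were, and 1 gene, Nqo1, was called lower, where 7.88% were. With 4 falls and 1 rise, 5 of the 10 passed the test at any size of change, where 22.6% of all genes did, and the median of the 10 was -0.70 against -0.01 over all genes.

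Slc7a11 also rose from healthy to tumor stromal cells. Healthy stroma held 0.109, 0.0431, 0.0801 and 0.493 RPKM and tumor stroma 3.55, 1.84, 9.32 and 11.8 RPKM, a rise of 5.47 ± 0.97 (edgeR, adjusted p = 0.0123). The values of tumor replicates 3 and 4, those with less epithelial signal, were the higher ones, and without replicates 1 and 2 the rise was 6.15 ± 0.93 (edgeR, adjusted p = 0.013). Neutrophil markers, however, summed to 42.8, 9.18, 1573 and 533 RPKM in tumor stromal replicates 1 to 4. In healthy stroma they summed to 6.46 to 45.5 RPKM. The fit without replicates 1 and 2 thus kept replicates 3 and 4, those with the most neutrophil signal. The part of neutrophil RNA in the level of Slc7a11 was not tested. Gpx2, at 6.0, 2.31, 1.54 and 1.02 RPKM in tumor stroma and 0.145 to 0.994 RPKM in healthy stroma, was also called (3.00 ± 0.78, edgeR adjusted p = 0.0445). Its tumor values followed the order of the epithelial marker sums, 238.1, 135.1, 52.7 and 31.7 RPKM, and without replicates 1 and 2 it no longer passed (1.83 ± 0.75, edgeR adjusted p = 0.212). Gclm rose by 1.11 ± 0.25 (edgeR, adjusted p = 0.0287), from 1.01 to 1.69 RPKM to 1.59 to 2.65 RPKM, but did not pass without replicates 1 and 2 (edgeR, adjusted p = 0.0698) or without any of 5 single libraries. Nqo1 was at 1.70, 1.01, 1.06 and 1.15 RPKM in healthy and 0.155 to 0.700 RPKM in tumor stroma, without overlap, yet did not pass (-1.02 ± 0.46, edgeR adjusted p = 0.212). The 2 called genes compare with 3.39% of 19081 genes called higher, and the median of the 10 was 0.58 against 0.03 over all genes.

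The change from healthy to tumor was then tested for a difference between epithelial and stromal cells. It was lower in epithelial cells for 5 genes, and 4 of them were called, where 7.25% of 20901 genes were called in that direction. The difference was -4.30 ± 0.83 for Gpx2 (edgeR, adjusted p = 0.00269), -3.02 ± 0.78 for Nqo1 (edgeR, adjusted p = 0.0158), -1.55 ± 0.34 for Gclc (edgeR, adjusted p = 0.00645), -1.52 ± 0.45 for Nfe2l2 (edgeR, adjusted p = 0.0313) and -1.46 ± 0.46 for Gclm (edgeR, adjusted p = 0.0435). For Slc7a11 both compartments rose, and the difference of -2.13 ± 1.19 did not pass (edgeR, adjusted p = 0.262). Without tumor stromal replicates 1 and 2, the values of Gpx2, Nqo1, Gclc and Nfe2l2 were -3.10, -3.23, -1.59 and -2.02. Each was still called, while Gclm did not pass (edgeR, adjusted p = 0.0864). Replicates 3 and 4, which were kept, had neutrophil marker sums of 1573 and 533 RPKM, against 6.46 to 45.5 RPKM in healthy stroma. Their epithelial marker sums were 52.7 and 31.7 RPKM, against 3.01 to 23.0 RPKM there. The part of either in these values was not tested. The call for Nfe2l2 was lost in 11 of 16 fits that left out 1 library (edgeR, adjusted p = 0.0123 to 0.0678 over the 16).

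Between cell types of the same tissue, Gpx2, Nqo1 and Gclm were called higher in healthy epithelium and Hmox1 in healthy stroma. Epithelial cells exceeded stromal cells by 5.60 ± 0.58 in Gpx2 (edgeR, adjusted p = 0.000138), by 2.56 ± 0.44 in Nqo1 (edgeR, adjusted p = 0.00167) and by 2.01 ± 0.33 in Gclm (edgeR, adjusted p = 0.00128), and Hmox1 was lower in epithelial cells (-2.77 ± 0.66, edgeR adjusted p = 0.00854). These 4 calls of 10 compare with 30.9% of 18468 genes called in either direction, so such differences were common. In RPKM, Nqo1 and Gclm overlapped between both groups, and each did not pass in 2 of 11 alternative fits. Scaled to reads outside mitochondrial genes, neither overlapped. Nqo1 was then at 2.54 to 17.3 against 1.21 to 2.14 RPKM in stroma, and Gclm at 2.30 to 10.3 against 1.21 to 2.13 RPKM. In tumors edgeR called none of the 10 between epithelial and stromal cells, where only 0.0294% of 16985 genes were called, 3 genes (Nfe2l2, Hmox1 and Gpx2) had an unadjusted p under 0.05, limma-voom called 0 and DESeq2 called 1, Hmox1 (-2.13, DESeq2 adjusted p = 0.00261). Leaving out tumor stromal replicates 1 and 2 kept replicates 3 and 4, those with the most neutrophil signal. Gpx2 (2.57 ± 0.44, edgeR adjusted p = 0.0035) and Hmox1 (-2.47 ± 0.48, edgeR adjusted p = 0.00654) were then called between tumor epithelial and stromal cells. These groups carry 2 title numbers in common, and with the number as a block Hmox1, Slc7a11 and Gpx2 were called (-3.48 ± 0.35, -1.74 ± 0.20 and 2.03 ± 0.40, edgeR adjusted p = 0.00197, 0.00338 and 0.0206), a fit with 1 residual degree of freedom, and with it as a random effect limma-voom called 0. In healthy blood, where 37.1% of 15033 genes were called between neutrophils and monocytes, Slc7a11, Nqo1 (3.06 ± 0.98, edgeR adjusted p = 0.025) and Prdx1 were called, the first and second higher in neutrophils. Nqo1 rested on low levels there, 0.111 to 0.382 RPKM in neutrophils against 0.00102 to 0.135 RPKM in monocytes, and with the title number as a block it did not pass (edgeR, adjusted p = 0.0796). Tumor neutrophils and tumor monocytes differed by a call in Slc7a11 alone, where 7.45% of 15003 genes were called.

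The order of the 10 groups by mean level was sharp for few genes. Of 90 pairs of neighbours in the 10 orders, 10 did not overlap in RPKM. For Slc7a11 the order ran from tumor neutrophils (92.1 ± 34 RPKM, SD, n = 4) and tumor monocytes (35.7 ± 14.5 RPKM) down to blood monocytes of tumor-bearing mice (0.149 ± 0.0457 RPKM) and of healthy mice (0.138 ± 0.0655 RPKM), which overlapped. Txnrd1 was at 19.6 ± 6.90 RPKM in tumor neutrophils and 17.1 ± 5.30 RPKM in tumor monocytes, which overlapped, and no other group exceeded 6.08 RPKM on average. Gpx2 had no pair of neighbours without overlap between healthy epithelium at 12.4 ± 7.16 RPKM and the lowest group, healthy stroma, at 0.438 ± 0.378 RPKM.

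The genes split into sets with unlike profiles over the libraries. Pearson correlations of log2(RPKM + 1) over the 40 libraries ran from -0.47 to 0.91 in the 45 pairs, with a median of 0.29, and 33 were above 0. These points share groups, depth and mitochondrial share, and the values are descriptions. Txnrd1 and Srxn1 were the closest pair (0.91), and Nfe2l2, Hmox1 and Slc7a11 were correlated with each other at 0.69 to 0.82. Gpx2 and Hmox1 were the most opposed pair (-0.47). Nqo1 was correlated with Gpx2 at 0.65 and with Hmox1 at -0.46.

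**Figure D4:**
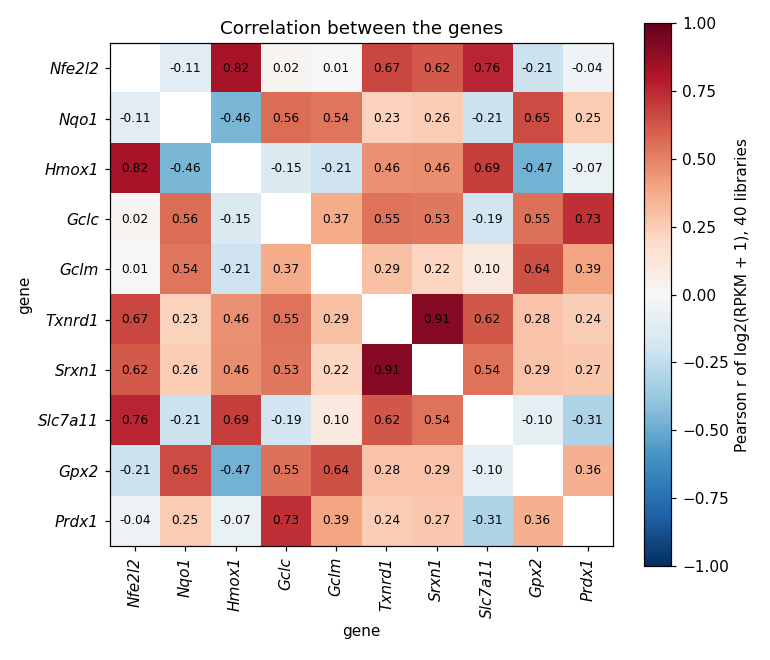
Pearson correlation (color and printed value) of log2(RPKM + 1) between each pair of the 10 genes (both axes) over 40 libraries. Nfe2l2, Hmox1, Slc7a11, Txnrd1 and Srxn1 are positively correlated with each other (0.46 to 0.91), and Hmox1 is negative with Nqo1, Gclc, Gclm, Gpx2 and Prdx1.

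Among 1886 genes with a mean RPKM of at least 5, the genes most like each member by the same correlation were also listed, 2 per member. For Slc7a11 they were Smox, the spermine oxidase (0.94), and Il1rn, the antagonist of the interleukin-1 receptor (0.93). For Nfe2l2 they were the pseudogene Gm6977 (0.90) and Fth1, ferritin heavy chain (0.90), and for Hmox1 the NF-kB subunit gene Rel (0.92) and Plaur, the urokinase receptor (0.88). Srxn1 was most like Txnrd1 (0.91) and Ifrd1 (0.84). Srxn1 itself lay under the RPKM limit and was not a candidate, and among the candidates Txnrd1 was most like Cdkn1a (0.88) and Bhlhe40 (0.87). Gclc was most like Mat2a (0.89), which makes S-adenosylmethionine, and Gm9523 (0.87), and Gclm most like Dstn (0.74) and Tst (0.74), the weakest of these. Gpx2 was most like Reg4 (0.95) and Prss32 (0.94), and Nqo1 most like the carbonic anhydrase gene Car2 (0.87) and Tspan8 (0.85). Prdx1 was most like Gm15974 (0.99) and Gm21399 (0.99), the latter a copy of Prdx1 that can take its reads.

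The wider pathway was read from 47 further genes, listed by role. From blood to tumor neutrophils 40 could be tested, and 7 were called higher and 0 lower, against 11.9% and 4.41% of all genes. Their median log2 fold change was 0.30, against 0.11 over all genes and 2.89 for the 10. Both lists were chosen with earlier results of these data known, so this contrast is a description only. The 4 named ones by size were Abcc1, an exporter of glutathione conjugates (5.25 ± 0.54, edgeR adjusted p = 0.000548), Slc3a2, the heavy chain that pairs with the Slc7a11 protein (3.80 ± 0.40, edgeR adjusted p = 0.000562), Maff, a small MAF partner (3.48 ± 0.55, edgeR adjusted p = 0.00222), and Fth1 (3.06 ± 0.41, edgeR adjusted p = 0.000968). Slc3a2 went from 1.34, 1.85, 1.68 and 1.97 RPKM in blood to 18.8, 25.7, 21.2 and 21.5 RPKM in tumor neutrophils. Keap1 and Bach1 did not pass (-0.83 ± 0.67 and -0.06 ± 0.45). Of the 5 tested genes that supply NADPH, on which thioredoxin and glutathione reductases run, Pgd (-1.22 ± 0.33, edgeR adjusted p = 0.0272) and Tkt (-1.45 ± 0.38, edgeR adjusted p = 0.0237) fell, where 5.39% of all genes did, and none of the 5 was called.

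In monocytes 7 of 43 tested genes were called higher and 2 lower, against 7.76% and 3.89% of all genes, with a median of -0.29 against -0.03. Fth1 (3.56 ± 0.33, edgeR adjusted p = 6e-05), Maff (3.18 ± 0.68, edgeR adjusted p = 0.0098), Sqstm1, an autophagy adaptor that binds KEAP1 (2.86 ± 0.33, edgeR adjusted p = 0.000302), and Slc3a2 (2.59 ± 0.34, edgeR adjusted p = 0.000565) were the largest. Slc3a2 was at 6.84, 7.68, 2.91 and 3.62 RPKM in blood and 23.3, 21.7, 31.5 and 28.8 RPKM in tumor monocytes. The 2 called lower, Idh1 and G6pdx, both make NADPH.

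In epithelial cells 2 of the 47 were called higher and 10 lower, against 7.52% and 7.88% of all genes, with a median of -0.31 against -0.01. Ugdh, which makes UDP-glucuronate, fell by 3.75 on the log2 scale (log2 fold change -3.75 ± 0.35, edgeR adjusted p = 6.47e-05), and the aldo-keto reductase gene Akr1b8 by 3.09 (log2 fold change -3.09 ± 0.70, edgeR adjusted p = 0.00923). Ephx1, an epoxide hydrolase (2.28 ± 0.58, edgeR adjusted p = 0.0168), and Blvrb, a biliverdin reductase (2.16 ± 0.39, edgeR adjusted p = 0.0028), rose. Ephx1 was at 1.71 to 3.27 RPKM in tumor and 0.0683 to 0.730 RPKM in healthy epithelium. Slc3a2 and Abcc1 rose without reaching the fold threshold. In stromal cells 4 were called higher and 3 lower, against 3.39% and 5.01% of all genes. Gpx3, the plasma glutathione peroxidase, was at 33.4, 26.9, 43.2 and 58.4 RPKM in healthy and 1.52, 0.945, 2.87 and 1.88 RPKM in tumor stroma (log2 fold change -4.16 ± 0.39, edgeR adjusted p = 0.00433). Ugdh (-3.26 ± 0.82, edgeR adjusted p = 0.0404) and Gstm1 (-2.86 ± 0.42, edgeR adjusted p = 0.00681) fell with it, and Gsr, glutathione reductase, rose (2.59 ± 0.39, edgeR adjusted p = 0.00742). The fall of fibroblast markers moved with these values, and its part in them was not tested.

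**Figure D5:**
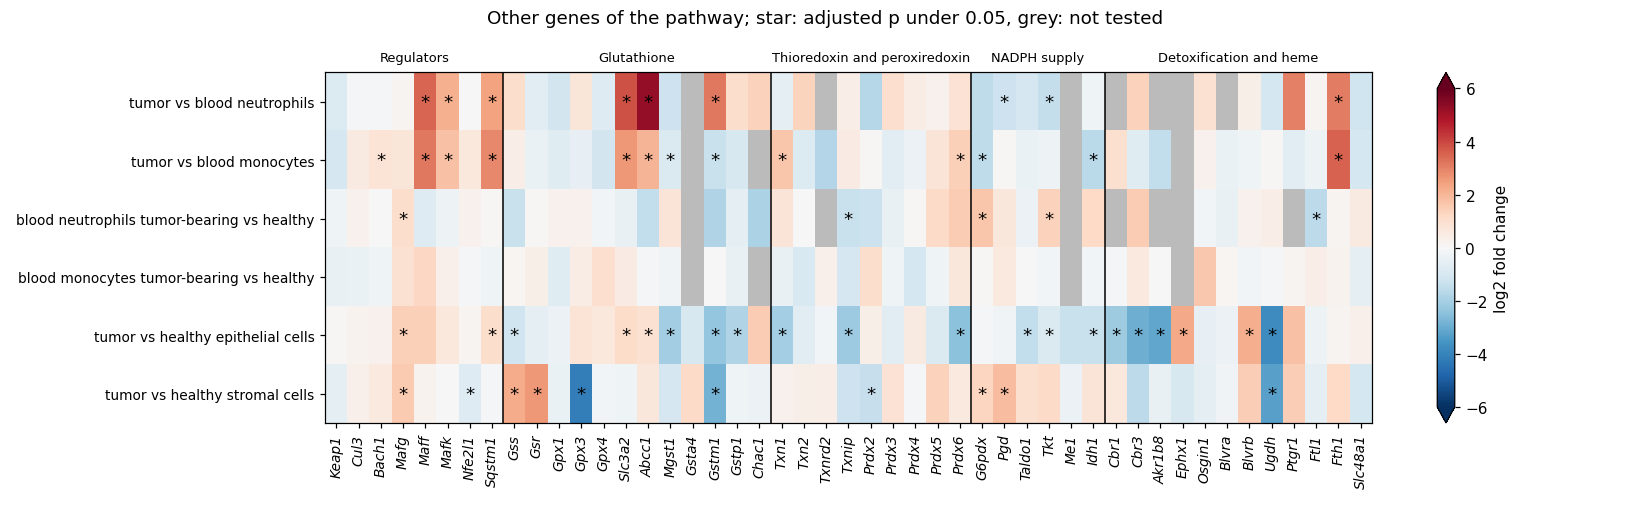
Log2 fold changes (color) of the 47 further pathway genes (x axis, by role) in 6 comparisons (y axis), where a star marks an edgeR adjusted p under 0.05 and grey a gene that was not tested. Slc3a2, Abcc1, Maff, Sqstm1 and Fth1 are starred and higher in both tumor myeloid comparisons, and in tumor epithelial cells 4 of 12 glutathione genes and 4 of 12 detoxification and heme genes are starred and lower and 2 of each starred and higher.

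In blood neutrophils of tumor-bearing mice 1 of the 40 tested was called higher, G6pdx (1.67 ± 0.22, edgeR adjusted p = 0.0034), and 1 lower, the ferritin light chain gene Ftl1 (-1.57 ± 0.40, edgeR adjusted p = 0.0449), against 1.79% and 2.22% of all genes. G6pdx held 31.9 to 53.9 RPKM there and 11.5 to 17.8 RPKM in healthy mice. In blood monocytes edgeR called 0 of 43, and 7 had an unadjusted p under 0.05. Between tumor neutrophils and tumor monocytes the 3 called genes were Osgin1 (5.30 ± 0.70, edgeR adjusted p = 0.0021), Chac1, which degrades glutathione (4.72 ± 1.13, edgeR adjusted p = 0.0286), and Txnip, the inhibitor of thioredoxin (2.22 ± 0.44, edgeR adjusted p = 0.0127), all higher in neutrophils. Osgin1 stood at 7.14, 9.02, 11.6 and 13.7 RPKM in tumor neutrophils and at 0.0525 to 0.588 RPKM in tumor monocytes, and it was also higher in healthy blood neutrophils than in monocytes (6.37 ± 0.50, edgeR adjusted p = 1.35e-05).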

How the data were processed

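RNA amplified from 40 sorted samples was sequenced. The authors mapped the reads to mm10 (Bowtie 2 cited) and counted them with HTSstation, and deposited estimated counts per gene without normalization (99.6% of nonzero values not whole) and RPKM values made from the same counts. The RPKM scale of a library relative to its count total ranged from 0.642 to 1.55 of the median. The annotation release, the use of strand and multi-mapping reads are not given in the sources used here. Counts were rounded, filtered with filterByExpr, normalized by TMM and tested in edgeR 4.0.16 (limma 3.58.1, R 4.3.3) by robust quasi-likelihood, 4 against 4 libraries, with interactions over 16. Calls needed an adjusted p (Benjamini-Hochberg) under 0.05 and a log2 fold change over 1.5 in size. The fit was tested on simulated data. The genes named were the 10 members, up to 4 further pathway genes per comparison (called, largest change, no overlap in RPKM), 2 most correlated genes per member, and those chosen after their values were seen: Keap1, Bach1, Pgd, Tkt, Idh1, G6pdx, Slc3a2 and Abcc1 in epithelial cells, and the markers Fn1, Cdh5, Csf1r and Ccr2. The members and lists were chosen with earlier results of these data known. Symbols and overlaps came from GENCODE M21. Copies had at least 95% identity over 200 bases. Alternatives were limma-voom, DESeq2 1.42.0, RLE size factors, other filters, 1 fit of all 40 libraries, a replicate block, limma on log2(RPKM + 1) and log2(RPKM + 0.1), leaving out libraries, leaving out mitochondrial genes and, chosen after seeing the data, adding the counts of copies and scaling RPKM to reads outside mitochondrial genes. Replicate numbers are not said to mark an animal, and 2 tumor stromal samples share one, so they were numbered in order. Titles carry numbers that recur between groups (1 to 4 numbers for each of 6 comparisons of 2 groups, with correlations of deviations of -0.18 to 0.46), and a block by title number was added after seeing the data. Counts of 3 or fewer were taken as the limit of detection.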

Additional observations from a re-analysis of the deposited data

Results flagged for a closer look

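Among the 100 sets of 4 libraries (10 genes in 10 groups), 11 had 1 library far from the other 3, where chance gives about 1 in 20. In tumor neutrophils these were Txnrd1 in replicate 2, at 29.8 RPKM, and Srxn1 in replicate 1, at 4.31 RPKM. In tumor monocytes it was Slc7a11 in replicate 3, at 57.3 RPKM. Healthy blood monocyte replicate 2 stood apart with 17.6 RPKM of Prdx1 and 3.21 RPKM of Gclm. In blood of tumor-bearing mice, Txnrd1 in neutrophil replicate 3 was at 0.638 RPKM and Nqo1 in monocyte replicate 3 at 0.0952 RPKM. Gclm in tumor epithelial replicate 2 was at 4.21 RPKM. In healthy stroma, Nfe2l2 in replicate 4 was at 34.3 RPKM, Slc7a11 in replicate 4 at 0.493 RPKM and Gclm in replicate 1 at 1.69 RPKM.

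For 6 genes a change differed between cell types by an interaction test of edgeR. Slc7a11 rose less from blood to tumor in neutrophils than in monocytes (log2 difference -4.41). From healthy to tumor, the change in epithelial cells was below that in stromal cells for Gpx2 (-4.30), Nqo1 (-3.02), Gclc (-1.55), Nfe2l2 (-1.52) and Gclm (-1.46).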

How the results depend on the processing

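Over 39 changes of single genes that passed, no alternative reversed a direction. In 109 of the 806 refits of these changes, single libraries left out included, the change no longer passed. Gpx2 was lost in 6 of 8 fits that left out 1 library in tumor against blood neutrophils. The same count held for Gpx2 in tumor against healthy stroma. Counts of called genes are given where they moved by more than 1.5 times, and smaller moves are left out. For tumor against blood neutrophils, 8 became 5 with limma on log2(RPKM + 1). In epithelial cells 2 became 5 with no fold threshold and 4 in 1 fit of all 40 libraries. In stromal cells 2 became 1 with no low-count filter, limma on log2(RPKM + 1), copies added or the 2 most epithelial tumor libraries left out. For healthy neutrophils against monocytes, 3 became 5 with no fold threshold. The 1 call between tumor neutrophils and monocytes became 3 with DESeq2, 2 in 1 fit of all libraries and 0 with RLE, no low-count filter, the replicate block, the block by title number and both limma fits on RPKM. Healthy epithelial against stromal cells went from 4 to 2 with either limma fit on RPKM. Tumor epithelial against stromal cells went from 0 to 1 with DESeq2 and 1 fit of all libraries, to 3 with the block by title number and to 2 without the 2 most epithelial stromal libraries. The myeloid interaction went from 1 to 2 with DESeq2, 10 counts in every library or 1 fit of all libraries and to 0 with limma on log2(RPKM + 1). The epithelial and stromal interaction went from 4 to 2 with no low-count filter, 1 with 10 counts in every library or 1 fit of all libraries, and 0 with limma on log2(RPKM + 1). The causes were not tested.

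Leaving out 1 library at a time gave 7 to 8 calls for tumor against blood neutrophils, 5 to 5 for monocytes, 0 to 0 for each blood comparison, 2 to 4 for epithelial cells (4 without tumor replicate 3), 1 to 3 for stromal cells (1 without healthy replicate 1, 2 or 3 or tumor replicate 1, 2 or 3), 2 to 4 for healthy neutrophils against monocytes, 0 to 1 for tumor neutrophils against monocytes, 4 to 6 for healthy epithelial against stromal cells, 0 to 1 for tumor epithelial against stromal cells (1 without tumor stromal replicate 1 or 2), 1 to 1 for the myeloid interaction and 2 to 5 for the other (2 without healthy epithelial replicate 1 or healthy stromal replicate 2 or 3).

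Same-numbered replicates did not deviate together (correlations of -0.24 to 0.32 over the comparisons), so the labels' replicate numbers were not taken to pair samples. By title number, replicates 2 to 4 of tumor neutrophils and monocytes share an animal number. The replicate block gave 7 calls for neutrophils, 5 for monocytes, 0 in blood, 3 for epithelial, 2 for stromal, 3 for healthy blood, 4 for healthy colon, 0 within tumors and 1 and 3 for the interactions. Under it the adjusted p were 0.151 for Gpx2 in neutrophils, 0.0784 for Gclc in monocytes, 0.0674 for Gclm in stromal cells, 0.0544 for Gclc in healthy blood, 0.15 for Slc7a11 between tumor neutrophils and monocytes, and 0.0961 and 0.0704 for Nfe2l2 and Gclm in the epithelial and stromal interaction (edgeR). The block by title number gave 2 calls for healthy blood and 1 for the myeloid interaction, and as a random effect in limma-voom 3 for healthy blood, 1 between tumor neutrophils and monocytes, and 1 and 4 for the interactions. It could not be fitted where groups share 1 title number or none, nor as a fixed block for the epithelial and stromal interaction. Limma on log2(RPKM + 0.1) was not run for the interactions.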
